A study of Homo sapiens with 208 samples.

Results

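Expression of 38 lysosome and autophagy genes was followed in 2 lung adenocarcinoma cell lines treated with the EGFR inhibitor gefitinib. The genes were chosen by name, with earlier results of these data known. Their values were read from the array probes matched to their RefSeq transcripts. Of the 38 genes, 37 were tested, among 13263 genes tested of 16961 with a matched probe. MITF was not tested because its probe with the largest variance was well above background on at most 6 of 26 arrays of any course.

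PC9 cells carry an activating EGFR deletion and are sensitive to gefitinib. PC9M2 cells (PC9GRM2 in the labels) are a resistant line isolated from PC9 after long exposure to gefitinib, without the T790M mutation or MET amplification, so every comparison between the lines rests on 1 derived line. Both lines were starved for 48 h and then followed over 26 time points from 0 to 24 h in 4 courses each, namely without treatment, with 100 ng/ml EGF, with 0.5 µM gefitinib, and with both agents. EGF was given at 0 h and gefitinib 2 h before that, so the gefitinib arrays at 0 h already come from treated cells. Each time point of each course is 1 array, 208 in all, and the arrays of neighbouring time points stand in for replicates. P-values therefore measure the spread between time points of 1 experiment and not between independent cultures.

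The lysosome is the acidic compartment in which the cell breaks down proteins, lipids and sugars with a set of hydrolases, and its acidity is kept by a proton-pumping V-ATPase. Autophagy delivers cytoplasm to it. The ULK1 kinase starts the process, and a lipid kinase complex with BECN1 marks the forming membrane. ATG5, ATG7 and ATG12 attach ATG8 proteins such as MAP1LC3B to this membrane, where they bind cargo receptors such as SQSTM1. UVRAG is a binding partner of BECN1. The factors TFEB, TFE3 and MITF bind a CACGTG-containing motif in many lysosomal promoters, and growth factor signalling through mTORC1 keeps them in the cytoplasm, so their activity is regulated largely without a change of their own mRNA.

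RefSeq promoter windows (GRCh38.p14) were matched for 27 of the 38 genes. In the 250 bases before the transcription start, CACGTG, which reads the same on both strands, was found in 8 of the 27 genes (ATP6V0D1, CTSA, CTSD, CTSF, GAA, LAMP1, MCOLN1 and NEU1), against 7.73% of all 27305 genes with a window. The longer form GTCACGTG, searched on both strands and always containing CACGTG, was found in 6 of the 27, all but CTSF and NEU1, against 2.66% of all genes with a window. Shown are the 5 genes with at least 2 copies, with CACGTG in capitals, as the windows that hold the motif most often. CTSF, GAA, CTSA, MCOLN1 and NEU1 were called higher with gefitinib in both lines, LAMP1 in PC9 alone, and CTSD and ATP6V0D1 in PC9M2 alone. In all, 17 of 37 genes were called higher in both lines, a count that was not made for all genes. A relation between motif and response was not tested. A match describes the letters of the window and is not a binding site.
CTSF: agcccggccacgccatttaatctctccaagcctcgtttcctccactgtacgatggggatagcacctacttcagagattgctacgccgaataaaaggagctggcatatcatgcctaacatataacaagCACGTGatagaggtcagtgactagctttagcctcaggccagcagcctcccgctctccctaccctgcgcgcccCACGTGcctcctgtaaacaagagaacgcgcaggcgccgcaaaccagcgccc
GAA: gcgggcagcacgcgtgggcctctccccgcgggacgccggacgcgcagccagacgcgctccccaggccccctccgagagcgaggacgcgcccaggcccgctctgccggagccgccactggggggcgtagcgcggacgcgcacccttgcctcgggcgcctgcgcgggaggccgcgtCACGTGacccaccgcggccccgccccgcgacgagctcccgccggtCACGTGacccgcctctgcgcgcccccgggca
CTSA: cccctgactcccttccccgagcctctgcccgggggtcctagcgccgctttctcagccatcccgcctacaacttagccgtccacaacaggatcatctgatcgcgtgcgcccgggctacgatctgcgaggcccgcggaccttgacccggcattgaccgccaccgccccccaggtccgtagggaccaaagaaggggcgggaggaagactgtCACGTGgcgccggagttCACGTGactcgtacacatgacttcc
MCOLN1: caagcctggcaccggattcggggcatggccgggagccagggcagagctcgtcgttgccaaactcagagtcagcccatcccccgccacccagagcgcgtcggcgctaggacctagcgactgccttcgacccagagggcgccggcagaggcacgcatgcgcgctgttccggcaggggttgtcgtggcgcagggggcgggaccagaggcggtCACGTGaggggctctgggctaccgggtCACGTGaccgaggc
LAMP1: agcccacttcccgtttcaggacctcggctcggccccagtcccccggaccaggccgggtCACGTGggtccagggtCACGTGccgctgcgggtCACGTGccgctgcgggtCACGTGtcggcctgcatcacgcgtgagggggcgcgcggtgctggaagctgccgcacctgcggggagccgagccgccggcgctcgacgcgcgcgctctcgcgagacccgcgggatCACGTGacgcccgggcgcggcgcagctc
The CTSF window is chr11:66568607-66568856 on the minus strand, the GAA window chr17:80101331-80101580 on the plus strand, the CTSA window chr20:45891085-45891334 on the plus strand, the MCOLN1 window chr19:7522374-7522623 on the plus strand and the LAMP1 window chr13:113296989-113297238 on the plus strand. LAMP1 held 5 copies and the other 4 genes 2 copies each. TFEB, TFE3, ULK1 and GLA, which are described below for other reasons, had a window without the 6 letters.

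The arrays are 1-colour, and values are log2 intensities after quantile normalization, which describe a share of the labelled RNA of an array and not molecules per cell, and in such bulk samples fewer cells of a type and less RNA per cell cannot be told apart. Between 24464 and 35938 features were well above background on PC9 arrays and between 26678 and 33444 on PC9M2 arrays. Between 183 and 1616 features were saturated on PC9 arrays and 0 on PC9M2 arrays. The 2 lines were scanned on separate days, 8 for PC9 and 9 for PC9M2, so line and scan period cannot be told apart, whereas the 4 treatments of a line and time point shared a slide. The epithelial markers EPCAM, CDH1, KRT8, KRT18 and KRT19 were well above background on all arrays, and the leukocyte and fibroblast markers PTPRC and COL3A1 on at most 3 of 26 arrays of a course, but NKX2-1, a defining factor of lung adenocarcinoma, was also above background on at most 3 of 26, and CD14, CSF1R, PECAM1 and VWF on at least 25 of 26. The fibroblast marker COL1A1 and the lung lineage markers NAPSA and SFTPB were also chosen, and their values are not given here. Over all tested genes, 8 arrays departed from their neighbours in time by more than 2 times the median of their course: the PC9 arrays with gefitinib, EGF, or both at 16 h, the untreated PC9 array at 18 h, the PC9M2 gefitinib array at 8 h, and the untreated PC9M2 arrays at 10, 11 and 12 h. Each result below was also computed without these 2 time points of PC9 and 4 of PC9M2, and each call that was lost is named.

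Gefitinib raised more of these genes than it lowered, in both lines. In PC9, limma called 19 of 37 genes higher and 7 lower with gefitinib, where 35.1% of all genes were called higher and 37.2% lower. In PC9M2 it called 20 higher, against 32.6% of all genes, and 8 lower, against 34.2%. The median difference over the 37 genes was 0.21 on the log2 scale in PC9 and 0.25 in PC9M2, and over all tested genes it was -0.02 and -0.01. The size of change was not larger than elsewhere, since the median absolute difference was 0.43 for these genes and 0.44 for all genes in PC9, and 0.30 and 0.32 in PC9M2. The difference at one time point showed some correlation with that at the next. The median autocorrelation at lag 1 was 0.256 in PC9 and 0.281 in PC9M2 (0.259 and 0.235 over all genes). Of the 37 genes, 17 were called higher in both lines, 6 lower in both, 3 in PC9 alone, 5 in PC9M2 alone and 6 in neither. These counts over both lines were not made for all genes, so they cannot be set against a share.

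**Figure D1:**
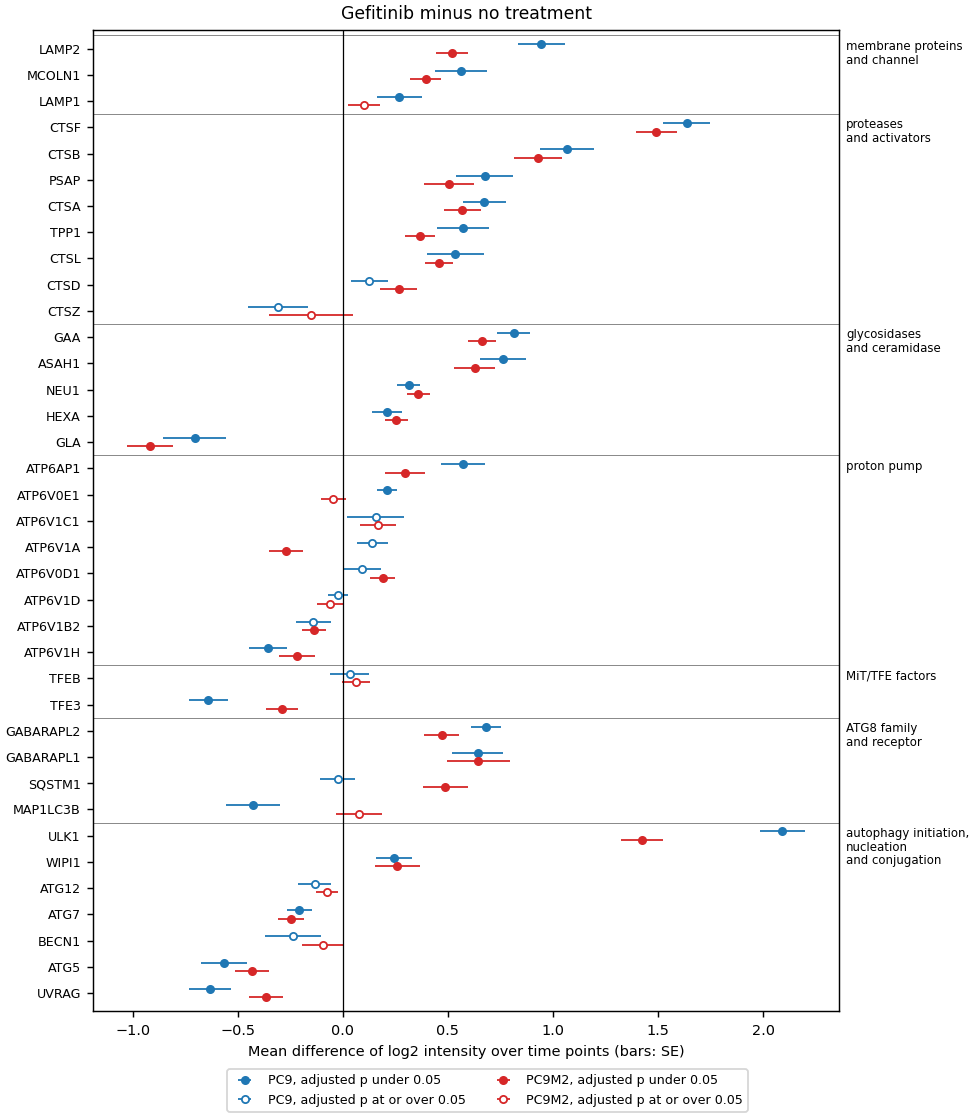
Mean difference of log2 intensity, gefitinib minus no treatment, over the time points for the 37 tested genes grouped by role, in PC9 (blue) and PC9M2 (red). Bars are standard errors and filled points have an adjusted p under 0.05. ULK1 and CTSF lie farthest to the right in both lines and GLA farthest to the left.

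The lysosomal membrane proteins were higher with gefitinib. LAMP2, a major glycoprotein of the lysosomal membrane, ranged from 8.82 to 10.39 (median 9.37) on untreated and from 9.55 to 11.5 (median 10.33) on gefitinib-treated PC9 arrays. The ranges overlap, and the gefitinib array was higher at 25 of 26 time points. The mean difference was 0.94 ± 0.11 (SE, 1.92-fold, adjusted p = 1.95e-08). In PC9M2 LAMP2 rose by 0.52 ± 0.08, also at 25 of 26 time points. A second probe for the LAMP2A transcript gave 0.75 and 0.53, while the probe for the LAMP2B transcript gave 0.19 in PC9 and 0.01 in PC9M2. MCOLN1, the calcium channel of the lysosome, rose by 0.56 ± 0.12 in PC9 and 0.39 ± 0.07 in PC9M2. LAMP1, the other major membrane glycoprotein, rose by 0.27 ± 0.11 in PC9 and differed by 0.10 ± 0.08 in PC9M2, which did not pass (adjusted p = 0.261). Its second probe was saturated on 99 of 104 PC9 arrays and can show no change there.

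By number of genes, the lysosomal proteases were the role group with the most rises. In PC9, 3 of 3 membrane proteins and 4 of 5 glycosidases and ceramidase were also called higher, and in PC9M2 2 of 3 and 4 of 5. Of the 8 proteases and activators, 6 were called higher in PC9, against 35.1% of all genes, and 7 in PC9M2, against 32.6%, and 0 lower. CTSF, a cysteine cathepsin, ranged from 9.99 to 11.03 (median 10.55) without treatment and from 10.98 to 12.8 (median 12.37) with gefitinib in PC9, and from 11.0 to 11.64 (median 11.2) and 11.89 to 13.31 (median 12.72) in PC9M2. The ranges overlap slightly in PC9 and are separate in PC9M2, where 0.52% of all genes were higher and 0.317% lower without overlap. CTSF rose by 1.64 ± 0.11 in PC9 (3.11-fold, adjusted p = 3.74e-13). The rise in PC9M2 was 1.49 ± 0.10 (2.81-fold, adjusted p = 2.74e-13). No time point went the other way in either line, and the mean of each scan day was above 0, from 0.88 to 2.35 in PC9 and from 0.69 to 2.14 in PC9M2.

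CTSB, the most widely expressed cysteine cathepsin, had a median of 8.53 (8.01 to 9.5) without and 9.64 (8.56 to 10.9) with gefitinib in PC9. With gefitinib CTSB was higher by 1.07 ± 0.13 in PC9 (2.09-fold, adjusted p = 2.91e-08). PC9M2 had 0.93 ± 0.11 (adjusted p = 4.17e-08). All 3 CTSB probes gave between 0.93 and 1.14 in either line. CTSA, the protective protein that holds neuraminidase and galactosidase together, rose by 0.67 ± 0.10 in PC9 and 0.57 ± 0.09 in PC9M2 (adjusted p = 2.2e-06). PSAP, the precursor of the saposins that present lipids to hydrolases, rose by 0.67 ± 0.14 and 0.50 ± 0.12, TPP1, a peptidase, by 0.57 ± 0.13 and 0.37 ± 0.07, and CTSL by 0.54 ± 0.14 and 0.46 ± 0.07. CTSD, the main aspartic protease, passed in PC9M2 (0.27 ± 0.09) and not in PC9 (0.13 ± 0.09). CTSZ had -0.31 ± 0.14 in PC9 and -0.15 ± 0.20 in PC9M2 and passed in neither, although in PC9 its adjusted p of 0.0555 became 0.0497 without the time points that stood apart.

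The glycosidases and the ceramidase are 5 genes together, of which 4 rose and GLA fell in both lines. Of all genes, 35.1% were called higher and 37.2% lower in PC9, and 32.6% and 34.2% in PC9M2. GAA, which degrades lysosomal glycogen, ranged from 11.91 to 12.81 (median 12.47) without and 12.55 to 14.07 (median 13.14) with gefitinib in PC9. It rose by 0.81 ± 0.08 (1.76-fold, adjusted p = 4.32e-10) at 26 of 26 time points, while PC9M2 had 0.66 ± 0.07 (adjusted p = 1.55e-09), higher at 25. The mean of a scan day ran from 0.41 to 1.26 for GAA in PC9 and from -0.15 to 1.09 in PC9M2, where 1 of 9 days was below 0. ASAH1, acid ceramidase, rose by 0.76 ± 0.11 in PC9, where 3 untreated arrays were flagged as outliers and 23 pairs remained, and by 0.63 ± 0.10 in PC9M2. NEU1 and HEXA rose by less, NEU1 by 0.31 ± 0.05 and 0.36 ± 0.05 and HEXA by 0.21 ± 0.07 and 0.25 ± 0.05. GLA, the alpha-galactosidase that is missing in Fabry disease, ranged from 14.28 to 15.05 (median 14.75) without and 12.62 to 14.74 (median 14.18) with gefitinib in PC9. GLA fell by 0.71 ± 0.15 in PC9 (adjusted p = 1.31e-04), lower at 20 of 26 time points and on 6 of 8 scan days. In PC9M2 it fell by 0.92 ± 0.11 (adjusted p = 2.13e-08), and there GLA was lower at each time point.

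The proton pump did not move as a group. Of 8 genes, 2 were called higher and 1 lower in PC9, and 2 higher and 3 lower in PC9M2, against 35.1% of all genes higher and 37.2% lower in PC9 and 32.6% and 34.2% in PC9M2. The accessory subunit ATP6AP1 rose by 0.57 ± 0.11 in PC9 and 0.30 ± 0.09 in PC9M2, and ATP6V1H, which couples the catalytic and membrane sectors, fell by 0.35 ± 0.09 and 0.22 ± 0.08. ATP6V1A, the catalytic subunit, had 0.14 ± 0.08 in PC9 and fell by 0.27 ± 0.08 in PC9M2, and ATP6V0E1 rose by 0.21 ± 0.05 in PC9 and had -0.05 ± 0.06 in PC9M2. ATP6V0D1 passed only in PC9M2 (0.19 ± 0.06), and ATP6V1C1 and ATP6V1D in neither line. ATP6V1B2 fell by 0.14 ± 0.06 in PC9M2 (adjusted p = 0.0335), and this call was lost without the time points that stood apart (adjusted p = 0.0956).

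Of the MiT/TFE factors, TFE3 fell and the mean difference of TFEB was near 0. TFEB, a main regulator of lysosomal genes, ranged from 8.73 to 9.67 (median 9.16) on untreated PC9 arrays and from 8.46 to 9.88 (median 9.35) with gefitinib, and from 7.32 to 9.11 (median 8.33) and 7.3 to 8.86 (median 8.36) in PC9M2. The ranges overlap almost fully. The TFEB difference was 0.03 ± 0.09 in PC9 (adjusted p = 0.763). PC9M2 gave 0.06 ± 0.07 (adjusted p = 0.426). TFE3 ranged from 8.3 to 9.89 (median 8.91) without and 7.91 to 9.08 (median 8.5) with gefitinib in PC9. TFE3 fell by 0.64 ± 0.09 in PC9 (adjusted p = 6.19e-07), lower at 23 of 26 time points and on 8 of 8 scan days. The PC9M2 arrays gave a smaller fall, -0.29 ± 0.08 (adjusted p = 0.00151), lower at 19 time points and on 6 of 9 scan days. For MITF, the brightest of 4 probes was well above background on all arrays and gave 0.19 ± 0.09 in PC9 when used in its place (adjusted p = 0.0525). That MITF probe fell in PC9M2, with -0.31 ± 0.08 (adjusted p = 0.0015). Its gefitinib effect in PC9M2 minus that in PC9 was -0.50 ± 0.08 (limma, adjusted p = 2.64e-05). The mean of all MITF probes gave -0.24 ± 0.10 for this contrast (adjusted p = 0.0643). Between the untreated lines, PC9M2 minus PC9, the brightest probe gave 0.38 ± 0.09 (adjusted p = 4.51e-04) and the mean of all probes 0.05 ± 0.09 (adjusted p = 0.667).

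The ATG8 family was split. GABARAPL2 rose by 0.68 ± 0.07 in PC9 and 0.47 ± 0.08 in PC9M2, and GABARAPL1 by 0.64 ± 0.12 and 0.64 ± 0.15. MAP1LC3B, the common marker of autophagosomes, fell by 0.43 ± 0.13 in PC9 over 25 pairs and had 0.08 ± 0.11 in PC9M2, and its 3 probes gave -0.45 to -0.38 in PC9 and 0.02 to 0.08 in PC9M2. SQSTM1, the receptor p62, had -0.02 ± 0.08 in PC9 and rose by 0.49 ± 0.11 in PC9M2. Near-identical copies of GABARAPL1 and MAP1LC3B exist in the genome and may share signal with these probes.

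ULK1 had the largest rise of the 37 genes in PC9. It ranged from 10.41 to 11.95 (median 11.0) on untreated PC9 arrays and from 12.27 to 14.03 (median 13.29) with gefitinib, so the groups do not overlap; 0.935% of all genes were higher and 0.648% lower without overlap in PC9. In PC9M2 it ranged from 10.56 to 12.29 (median 11.29) and from 11.84 to 13.28 (median 12.71). ULK1 rose by 2.09 ± 0.11 in PC9 (4.26-fold, adjusted p = 1.53e-15). In PC9M2 the rise was 1.42 ± 0.10 (2.68-fold, adjusted p = 1.11e-12). The gefitinib array was the higher one throughout, and scan-day means ran from 0.94 to 2.42 in PC9 and from 0.99 to 2.18 in PC9M2. A second ULK1 probe, saturated on 25 PC9 arrays, gave 1.69 and 1.35.

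Among the 37 genes, those grouped under membrane nucleation and conjugation that passed mostly fell. Of the further autophagy genes described below, AMBRA1 rose in both lines and ATG14 in PC9. ATG5, which conjugates ATG8 proteins together with ATG12, fell by 0.57 ± 0.11 in PC9 (adjusted p = 3.4e-05). PC9M2 showed a fall as well, -0.43 ± 0.08 (adjusted p = 3.18e-05). UVRAG fell by 0.63 ± 0.10 (adjusted p = 2.59e-06) and 0.37 ± 0.08. ATG7, the activating enzyme of both conjugation systems, fell by 0.21 ± 0.06 and 0.25 ± 0.06 (adjusted p = 9.66e-04 in PC9M2). WIPI1, which reads the lipid mark on the forming membrane, rose by 0.24 ± 0.09 and 0.26 ± 0.11, the second of which was lost without the time points that stood apart (adjusted p = 0.155). ATG12 and BECN1 passed in neither line, but both were called lower in PC9M2 without those time points, ATG12 at -0.11 (adjusted p = 0.022) and BECN1 at -0.20 (adjusted p = 0.0145). These calls rest on 1 probe per gene. Over all time points in PC9M2, the BECN1 probe used gave -0.10 and the other BECN1 probes each 0.06. The ATG12 probe used gave -0.08 there and the second ATG12 probe -0.0065.

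**Figure D2:**
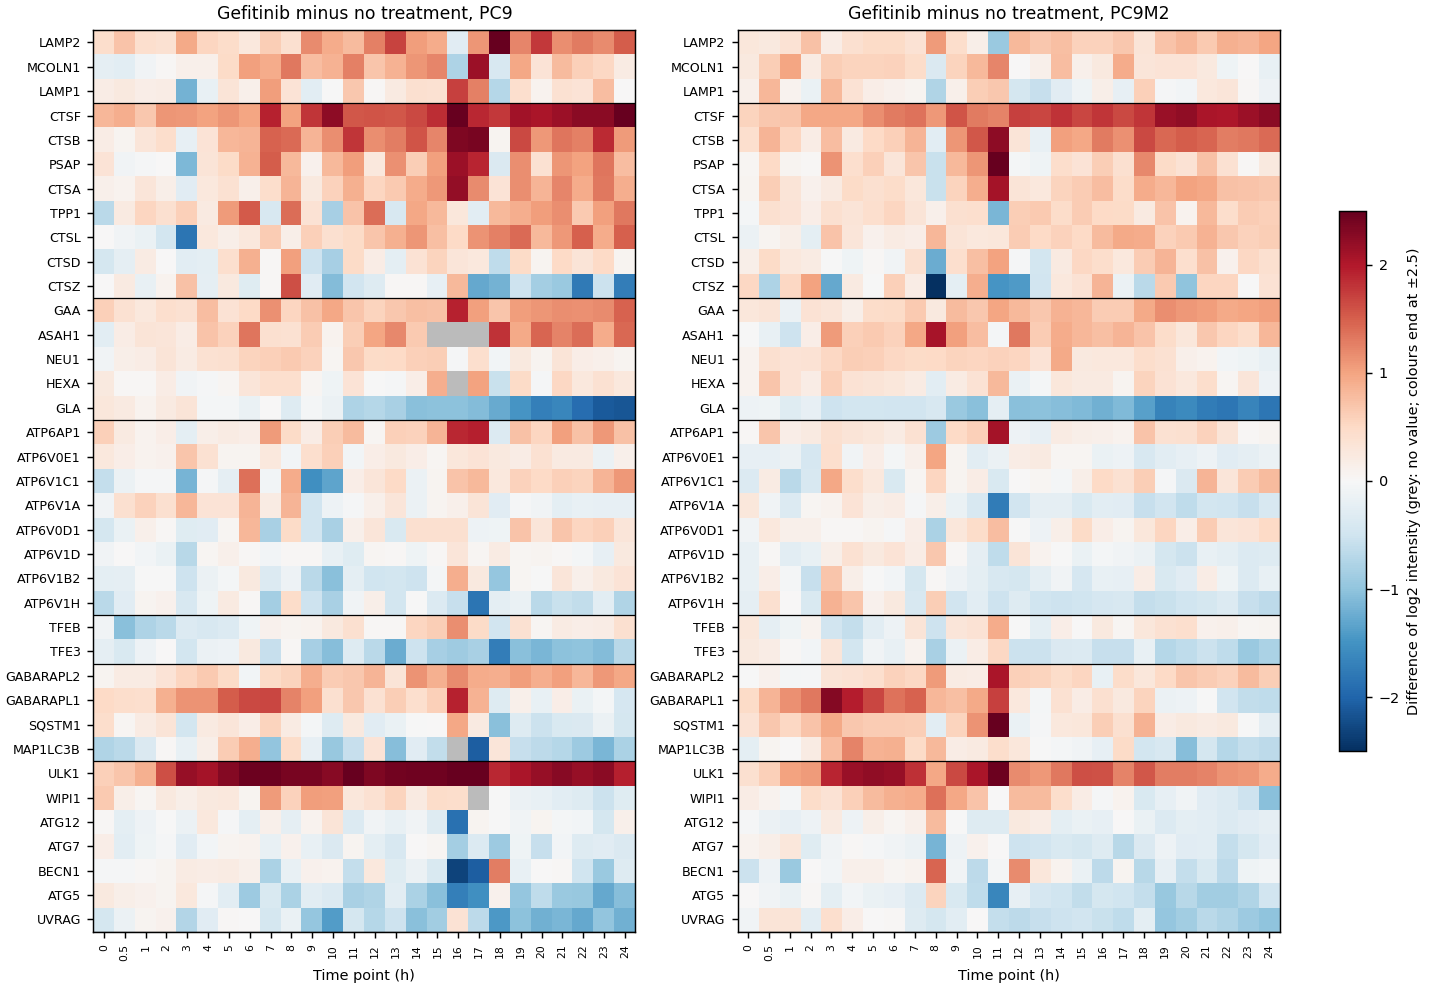
Difference of log2 intensity, gefitinib minus no treatment, at each of the 26 time points for the 37 tested genes in PC9 (left) and PC9M2 (right), red for higher and blue for lower with gefitinib. Black lines separate the role groups, and grey marks a pair in which a spot was flagged as an outlier. Isolated columns, such as 16 h in PC9 and 11 h in PC9M2, depart from their neighbours across many genes.

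The differences took different courses over the 24 h. The ULK1 difference in PC9 was 0.59 at 0 h, 1.61 at 2 h and 2.17 at 3 h, and then stayed between 1.89 and 2.66. In PC9M2 the ULK1 difference was 0.40 at 0 h, 2.21 at 5 h and 0.94 at 24 h. The CTSF difference was 0.82 at 0 h and 2.55 at 24 h in PC9, and 0.56 and 2.26 in PC9M2. GLA fell late: the difference in PC9 was 0.10 ± 0.17 (SD, 9 time points) from 0 to 7 h, -0.61 ± 0.39 (8 time points) from 8 to 15 h and -1.60 ± 0.42 (9 time points) from 16 to 24 h. GABARAPL1 went the other way, from 1.04 ± 0.51 over 0 to 7 h to 0.22 ± 0.75 over 16 to 24 h in PC9, and from 1.39 ± 0.55 to -0.09 ± 0.43 in PC9M2.

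The last time points were tested against the first. In PC9, 14 genes had a difference that was higher at 16 to 24 h than at 0 to 7 h, against 25.6% of all genes, and 9 one that was lower, against 25.4%. The largest changes upward were those of CTSL (1.26 ± 0.23, adjusted p = 3.6e-05), CTSF (1.12 ± 0.16, adjusted p = 1.78e-06) and CTSB (0.97 ± 0.25, adjusted p = 0.00168), and downward those of GLA (-1.70 ± 0.16, adjusted p = 3.92e-09), CTSZ (-0.95 ± 0.29, adjusted p = 0.00825) and ATG5 (-0.91 ± 0.20, adjusted p = 3.13e-04). TFEB moved from -0.41 ± 0.37 at 0 to 7 h to 0.28 ± 0.43 at 16 to 24 h in PC9, a change of 0.69 ± 0.17 (SE, adjusted p = 0.00133), so its mean near 0 covers an early lower and a late higher level. TFE3 moved by -0.85 ± 0.16. In PC9M2, 4 genes moved up, against 19.5% of all genes, and 12 down, against 19.8%. CTSF (1.04 ± 0.12), CTSB (0.84 ± 0.23) and GAA (0.62 ± 0.11) led upward and GABARAPL1 (-1.48 ± 0.23), GLA (-1.20 ± 0.13) and MAP1LC3B (-0.93 ± 0.19) downward. TFE3 moved by -0.63 ± 0.14 there and TFEB by 0.31 ± 0.15, which did not pass (adjusted p = 0.101). The PC9 calls of ATG7 (adjusted p = 0.0736) and ULK1 (adjusted p = 0.0689) were lost without the time points that stood apart, and in PC9M2 9 genes then moved up, against 24% of all genes, and 14 down, against 25.9%. Neighbouring time points were mostly scanned on the same day, so early and late arrays also differ in scan day.

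The level itself also moved without gefitinib. In untreated PC9, 13 genes were higher at 16 to 24 h than at 0 to 7 h, against 24.2% of all genes, and 2 lower, against 25%. GABARAPL1 (1.43 ± 0.18), WIPI1 (1.18 ± 0.19) and TFE3 (1.04 ± 0.11) rose most, and BECN1 (-0.59 ± 0.23) and ATP6V1H (-0.46 ± 0.16) fell, although a brighter probe gave 0.02 for BECN1 and 0.39 for ATP6V1H. The rise of CTSZ (0.86) was lost without the time points that stood apart (adjusted p = 0.0672). In untreated PC9M2, 11 were higher, against 20.7%, and 4 lower, against 18.3%. GABARAPL1 (1.12 ± 0.16), GLA (1.08 ± 0.15) and BECN1 (0.90 ± 0.18) rose most and CTSB (-0.58 ± 0.16), CTSL (-0.41 ± 0.10) and GAA (-0.32 ± 0.10) fell. These untreated arrays are also the control of the gefitinib difference. The falling differences of GABARAPL1 and TFE3 in both lines and of GLA in PC9M2 stood beside rising untreated levels. The rising differences of CTSB and GAA in PC9M2 stood beside falling untreated levels. In PC9M2 the gefitinib-treated level of GLA itself was 13.36 ± 0.14 (SD) at 0 to 7 h and 13.25 ± 0.15 at 16 to 24 h. The level of TFE3 rose without treatment by 0.41 ± 0.10 in PC9M2, while TFEB did not pass in either line (0.05 ± 0.13 and -0.33 ± 0.18).

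**Figure D3:**
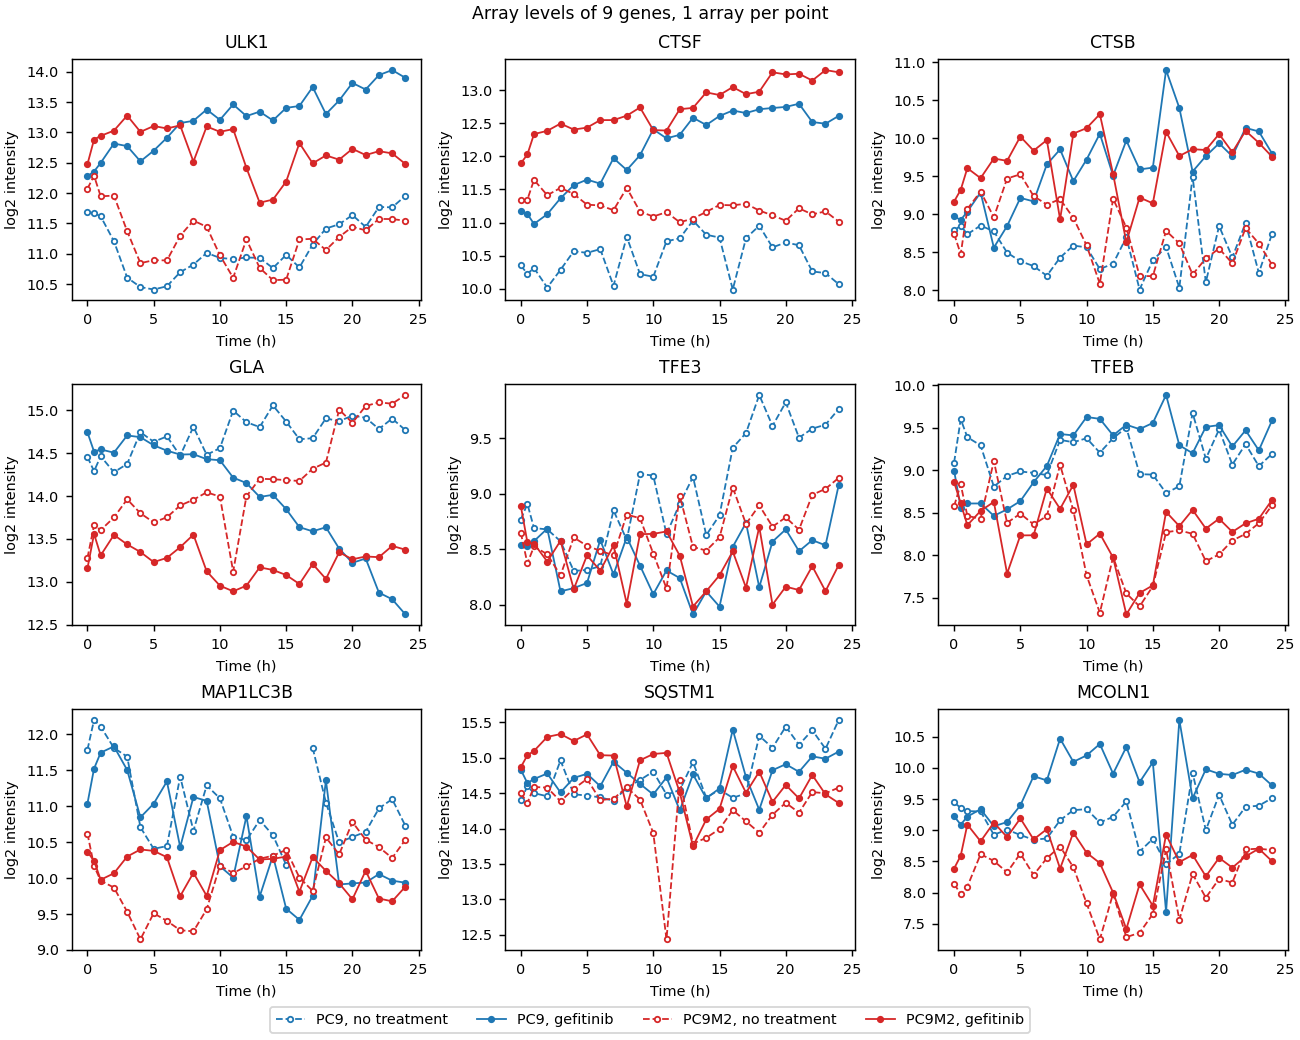
Log2 intensity over time for 9 genes in untreated (dashed, open points) and gefitinib-treated (solid, filled points) PC9 (blue) and PC9M2 (red) cells, with 1 array per point and a separate vertical scale for each gene. The treated and untreated ULK1 courses are separate throughout PC9, the PC9 GLA courses part late, and the TFEB levels of the 2 treatments overlap in each line.

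The gefitinib effect differed between the lines for 9 of the 37 genes. The difference of the 2 effects, PC9M2 minus PC9, was called higher for 4 genes, against 17% of all genes, and lower for 5, against 16.9%. ULK1 rose less in PC9M2, by -0.67 ± 0.10 (adjusted p = 4.45e-06, at 24 of 26 time points), and so did LAMP2 (-0.42 ± 0.12, adjusted p = 0.00913). ATP6V1A (-0.41 ± 0.08, adjusted p = 2.98e-04) was higher in PC9 and lower in PC9M2, with only the second past the threshold. MAP1LC3B (0.51 ± 0.13, adjusted p = 0.00275), SQSTM1 (0.51 ± 0.12, adjusted p = 0.00198) and TFE3 (0.35 ± 0.10, adjusted p = 0.00694) had the more positive effect in PC9M2. UVRAG, ATP6V0E1 and GLA were the other 3, and TFEB had 0.03 ± 0.09. CTSF, CTSB and GAA, with large effects in both lines, did not pass, which does not show that their effects were equal. Of the 9 calls, 1 held with time points 3 h apart, that of ULK1, and 2 with scan day as a block, those of ULK1 and ATP6V1A. The probes of ATP6V0E1, GLA and SQSTM1 were saturated on 4, 3 and 3 of 104 PC9 arrays and on 0 PC9M2 arrays.

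Cells given EGF as well provide a second set of arrays for the gefitinib effect. In PC9, gefitinib with EGF against EGF alone gave 22 genes higher, against 39% of all genes, and 9 lower, against 39.9%. In PC9M2 it gave 22 higher, against 36.7%, and 8 lower, against 37.8%. Of the 26 genes called in PC9 without EGF, 25 were called with it, all in the same direction, and of the 28 in PC9M2, 26 were, again all in the same direction. Over all genes, 8997 of 9593 in PC9 and 8329 of 8848 in PC9M2 were called in both, so this share is not particular to these genes. ULK1 rose by 2.04 ± 0.11 in PC9 and 1.69 ± 0.13 in PC9M2, CTSF by 1.73 ± 0.12 and 1.76 ± 0.14, and CTSB by 1.06 ± 0.09 and 1.19 ± 0.13. GLA fell by 0.74 ± 0.15 and 0.99 ± 0.12, ATG5 by 0.71 ± 0.09 and 0.47 ± 0.07, TFE3 by 0.74 ± 0.08 and 0.33 ± 0.06, and UVRAG in PC9M2 by 0.46 ± 0.07. TFEB, which did not pass without EGF, rose by 0.36 ± 0.11 in PC9 (adjusted p = 0.00307). Its rise in PC9M2 was 0.17 ± 0.06 (adjusted p = 0.0141). The call of CTSZ in PC9 (adjusted p = 0.118) and of LAMP1 in PC9M2 (adjusted p = 0.0503) was lost without the time points that stood apart.

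**Figure D4:**
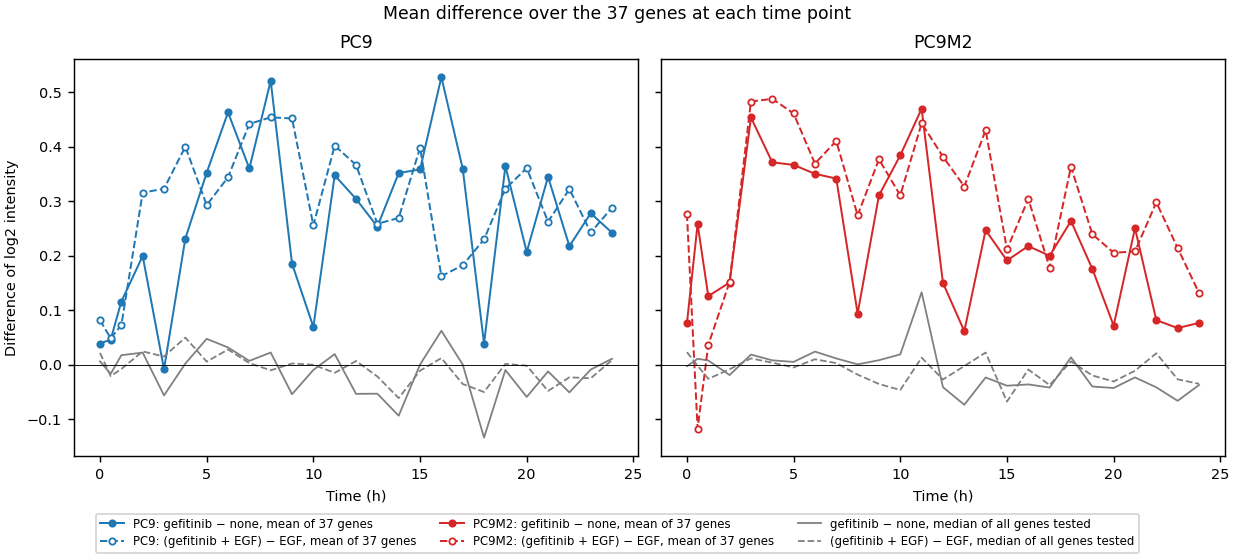
Mean difference of log2 intensity over the 37 genes at each time point for gefitinib against no treatment (solid) and gefitinib with EGF against EGF (dashed) in PC9 (blue) and PC9M2 (red), with the median over all tested genes in grey. The mean of the 37 genes is above 0 at 25 or 26 of 26 time points in each of the 4 comparisons.

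Averaged over the 37 genes, the gefitinib difference in PC9 ran from -0.01 at 3 h to 0.53 at 16 h with a median of 0.27, and in PC9M2 from 0.06 at 13 h to 0.47 at 11 h with a median of 0.21. The median over all genes stayed between -0.13 and 0.06 in PC9 and between -0.07 and 0.13 in PC9M2. The highest value of each line lies at a time point that stood apart. From 0 to 7, 8 to 15 and 16 to 24 h the mean was 0.20, 0.30 and 0.29 in PC9 and 0.28, 0.24 and 0.16 in PC9M2.

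EGF alone moved few of these genes. In PC9 it raised 2 genes, against 11.3% of all genes, and lowered 4, against 14.3%. WIPI1 rose by 0.25 ± 0.06 (adjusted p = 0.00395) and ATG5 by 0.17 ± 0.06 (adjusted p = 0.0354). TFEB fell by 0.31 ± 0.07 (adjusted p = 7.74e-04), ATP6V1C1 by 0.23 ± 0.07, GABARAPL1 by 0.16 ± 0.06 and GABARAPL2 by 0.15 ± 0.03. The EGF arrays of TFEB are also the control of its gefitinib difference with EGF, so its fall here and its rise there share 26 arrays. In PC9M2 EGF raised WIPI1 (0.16 ± 0.04, adjusted p = 0.0154), against 4.09% of all genes, and lowered CTSF (-0.20 ± 0.05, adjusted p = 0.00757), against 5.04%. TFE3 passed in neither line (0.12 ± 0.04 and 0.06 ± 0.04).

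Under gefitinib the EGF effect was smaller still. In PC9 limma called 0 of the 37 genes, and 0 had an unadjusted p under 0.05, where 0.0452% of all genes were called higher and 0% lower. In PC9M2 it called ATP6V1C1 higher (0.15 ± 0.03, adjusted p = 0.019), against 1.07% of all genes, and 0 genes lower, against 2.14%, and 8 genes had an unadjusted p under 0.05. TFEB and TFE3 had differences between -0.04 and 0.02 in the 2 lines.

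Between the lines, these genes were called different no more often than all genes were, and more of them were lower in PC9M2 than higher. Without treatment, 7 genes were higher in PC9M2 than in PC9, against 31.1% of all genes, and 17 lower, against 37%. With gefitinib on both sides, 8 were higher, against 30.7%, and 16 lower, against 34.3%. GAA ranged from 12.93 to 14.11 (median 13.39) on untreated PC9M2 and from 11.91 to 12.81 (median 12.47) on untreated PC9 arrays, and was higher in PC9M2 by 0.97 ± 0.08 (1.96-fold, adjusted p = 6.5e-12) at 26 of 26 time points. CTSF was higher by 0.76 ± 0.08 (adjusted p = 1.13e-09) and LAMP2 by 0.79 ± 0.10 (adjusted p = 4.56e-08), but the second LAMP2A probe gave -0.30, so the direction for LAMP2 depends on the probe.

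The lower genes came from all role groups but the proteases. TFEB was lower in PC9M2 by 0.92 ± 0.10 (0.527-fold, adjusted p = 7.27e-09, lower at 25 of 26 time points), and MCOLN1 by 0.98 ± 0.11 (adjusted p = 2.31e-09). UVRAG was lower by 1.04 ± 0.10 (adjusted p = 3.35e-10) and MAP1LC3B by 0.99 ± 0.15 (adjusted p = 1.68e-06), GABARAPL1 by 0.87 and TFE3 by 0.39 ± 0.08 (adjusted p = 1.05e-04). Of the 8 proton pump genes, 5 were lower and 0 higher, with ATP6V1H (-0.79) the lowest. With gefitinib in both lines, MCOLN1 was lower by 1.15 ± 0.17, ATP6V1A by 1.04 ± 0.11 and TFEB by 0.89 ± 0.12, and GAA (0.82 ± 0.07), ATG5 (0.68 ± 0.09) and CTSF (0.62 ± 0.07) were higher. TFE3 no longer differed past the threshold (-0.04 ± 0.08, adjusted p = 0.687). The second probes of ATG5 (-0.19 untreated), ATP6V1A (0.06) and BECN1 (-0.04 and -0.14) gave other line differences than the probes used (0.54, -0.63 and -0.50), as did that of ULK1 with gefitinib (-0.07 against -0.51), and the BECN1 call was lost without the time points that stood apart (adjusted p = 0.0625).

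**Figure D5:**
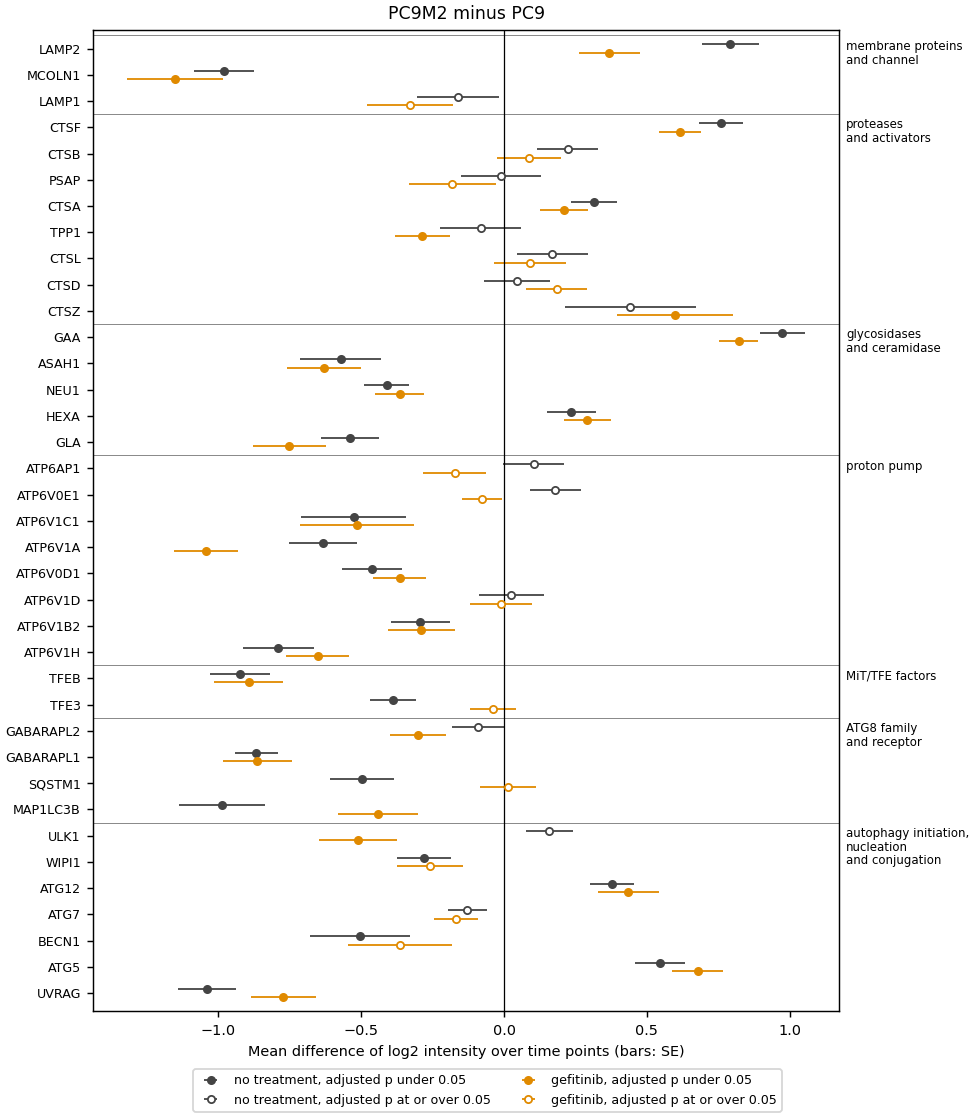
Mean difference of log2 intensity, PC9M2 minus PC9, over the time points for the 37 tested genes grouped by role, without treatment (dark grey) and with gefitinib (orange). Bars are standard errors and filled points have an adjusted p under 0.05. TFEB, MCOLN1, GABARAPL1, UVRAG and most proton pump genes lie left of 0 and GAA, CTSF and ATG5 right of it in both conditions.

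Other genes of these pathways were read from lists that do not overlap the 38 genes. Of 33 tested lysosomal hydrolases and membrane proteins, gefitinib raised 15 and lowered 4 in PC9 and raised 15 and lowered 5 in PC9M2, with medians of 0.0010 and 0.12, where 35.1% of all genes were called higher and 37.2% lower in PC9 and 32.6% and 34.2% in PC9M2. MANBA, a mannosidase, rose by 1.65 ± 0.15 in PC9, CTSV, a cathepsin, by 1.60 ± 0.11 in PC9 and 1.31 ± 0.11 in PC9M2, and CTSO by 1.57 ± 0.25 in PC9M2. CTSC (-0.95 ± 0.12 in PC9), CLN3 (-0.69 ± 0.15 and -0.48 ± 0.12) and LAPTM4B (-0.49 ± 0.06 in PC9M2) fell. Of 13 tested further V-ATPase subunits, 6 rose and 4 fell in PC9, and 4 rose and 3 fell in PC9M2, with medians of 0.04 and 0.02, so that the counts lie near these shares of all genes. ATP6V1B1, a subunit known from kidney and inner ear, rose by 4.86 ± 0.41 in PC9 and 3.57 ± 0.34 in PC9M2. This change exceeded that of every member, but the levels of ATP6V1B1 are not given here. The filter asked for signal well above background in any course, not in each course compared. Whether the untreated level of ATP6V1B1 lay near background was not tested, so the size of its change is uncertain. ATP6V1C2 rose by 1.61 ± 0.11 in PC9 and ATP6V0D2 by 1.20 ± 0.24 in PC9M2, while ATP6V0A2 fell by 1.32 ± 0.11 and 0.59 ± 0.04, ATP6V1G2 by 0.52 ± 0.15 in PC9 and ATP6V0C by 0.17 ± 0.08 in PC9M2.

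Of 30 tested further autophagy genes, 16 rose and 7 fell in PC9 and 17 rose and 7 fell in PC9M2, with medians of 0.38 and 0.22. Of all genes, 35.1% were called higher and 37.2% lower in PC9, and 32.6% and 34.2% in PC9M2. AMBRA1, which acts with BECN1, rose by 1.58 ± 0.16 in PC9 and 0.85 ± 0.09 in PC9M2, ATG14 by 1.12 ± 0.07 in PC9 and the receptor OPTN by 0.88 ± 0.09 in PC9M2. ATG4A, which trims ATG8 proteins, fell by 0.76 ± 0.12 and 0.77 ± 0.10, SNAP29 by 0.59 ± 0.09 in PC9 and ATG16L1 by 0.54 ± 0.06 in PC9M2. Of 22 tested genes of mTORC1 and nutrient sensing, 10 rose and 7 fell in PC9 and 8 rose and 6 fell in PC9M2, with medians of 0.05 and 0.03, again near the shares of all genes. SESN3 rose by 1.09 ± 0.16 and 1.52 ± 0.16, TSC2 by 0.50 ± 0.08 in PC9 and TSC1 by 0.63 ± 0.07 in PC9M2, and SESN2 (-0.75 ± 0.13 and -0.62 ± 0.14), FNIP2 (-1.15 ± 0.15 in PC9) and DDIT4 (-0.85 ± 0.12 in PC9M2) fell. Between the untreated lines, 18 of the 33 further lysosomal genes were lower in PC9M2 and 6 higher, against 37% and 31.1% of all genes, with CTSS (-2.17 ± 0.14) the lowest and SGSH (1.38 ± 0.11) and GUSB (0.84 ± 0.09) the highest. Of the other lists, 7 of 13 V-ATPase subunits were lower and 1 higher, 10 of 30 autophagy genes lower and 12 higher, and 7 of 22 genes of mTORC1 and nutrient sensing lower and 4 higher.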

How the data were processed

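Gene expression was measured with 208 1-colour Agilent 44K arrays. The authors deposited Feature Extraction 10.5.1.1 files, whose processed signal is a background-subtracted intensity on a linear scale, and a table of normalized intensity values that ranked the spots of each array like the processed signal. From the processed intensities, non-control spots were quantile normalized over all arrays, floored at 1 and log2 transformed. Flagged spots (0.0793% of values) were left out and spots of a probe averaged. Probes were matched by RefSeq accession (24794 of 41000), the probe with the largest variance represented a gene, and genes well above background on at least 13 of 26 arrays of a course were tested. Differences between arrays of the same time point were tested with limma 3.58.1 in R 4.3.3, two-sided, with Benjamini-Hochberg adjustment over all 13263 genes at 0.05. Alternatives changed the background correction (normexp, on the median signal), scaling, floor, probe choice, filters, pairing, spacing of time points, scan-day block, autocorrelation, test and fold, and used the deposited table. Fully described genes are the 6 largest rises and 4 largest falls with gefitinib in each line that kept 1 direction at 20 or more time points, the 3 largest each way in other comparisons, TFEB, TFE3 and MITF, and the 2 largest each way of the other pathway lists, of which 1 gene is not reported here. Members, lists and tests were chosen with earlier results of these data known. The fit was tested on simulated data. The number of arrays limits the precision.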

Additional observations from a re-analysis of the deposited data

Results flagged for a closer look

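By limma's test of the difference itself, 17% of all genes had a higher gefitinib effect in PC9M2 than in PC9 and 16.9% a lower one. In this test the gefitinib effect differed between PC9M2 and PC9 for 9 of the 37 genes. It was lower in PC9M2 for ULK1 (-0.67 on the log2 scale), LAMP2 (-0.42), ATP6V1A (-0.41), ATP6V0E1 (-0.26) and GLA (-0.21), and higher for MAP1LC3B (0.51), SQSTM1 (0.51), TFE3 (0.35) and UVRAG (0.27). All 9 stayed past the threshold without the time points that stood apart, where SQSTM1 had 0.41. With time points 3 h apart only ULK1 stayed past it, with scan day as a block only ULK1 and ATP6V1A, and with unpaired arrays only ULK1 and SQSTM1. Normexp lost ATP6V0E1 (adjusted p = 0.166) and GLA (adjusted p = 0.267), the deposited table lost GLA (adjusted p = 0.0614), and variance inflated for autocorrelation lost GLA (adjusted p = 0.155) and UVRAG (adjusted p = 0.0608), all by limma. None of the 9 reached 2-fold. Line and scan period cannot be told apart.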

How the results depend on the processing

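Counts are genes called of 37 unless stated, and counts for a change of at least 2-fold were not made over all genes. Requiring a change of at least 2-fold left 3 in PC9 and 2 in PC9M2 for gefitinib, 3 in each line with EGF, 0 for the difference of the effects, 1 between untreated and 2 between gefitinib-treated lines, 0 for EGF in each line and under gefitinib in PC9M2, 3 for each late minus early gefitinib effect, and 3 and 2 for the untreated courses of PC9 and PC9M2. Time points 3 h apart gave 14 for gefitinib in PC9 (9 higher, 5 lower, with 6455 of all 13263 genes called), 1 for the difference of the effects (1037 of all genes), 14 and 12 between the lines without and with gefitinib (5887 and 5813 of all genes), and 0 for EGF in PC9, in PC9M2 and under gefitinib in PC9M2 (548, 14 and 117 of all genes). Variance inflated for autocorrelation gave 17 for gefitinib with EGF in PC9 (6259 of all 13263 genes), 8 between the gefitinib-treated lines (4820) and 1 for EGF in PC9M2 (425). Scan day as a block gave 2 for the difference of the effects (2022 of all 13263 genes), 2 for EGF under gefitinib in PC9M2 (592) and 7 for the untreated course of PC9M2 (2440). Unpaired arrays gave 2 for the difference of the effects (2025 of all 13263 genes), 1 for EGF in PC9 (400) and 0 for EGF in PC9M2 (89) and under gefitinib in PC9M2 (0). EGF in PC9 had 11 of 38 with the brightest probe (3756 of 13578 genes). EGF in PC9M2 had 4 of 38 with normexp (1400 of 13524 genes). It had 4 without the time points that stood apart (4.31% of all genes higher and 5.7% lower), a setting chosen after seeing the data. EGF under gefitinib in PC9M2 had 2 of 38 with normexp (592 of 13524 genes) and 2 with the methods' t-test (409 of 13263). It had 0 of 38 with the mean of all probes (416 of 13599) and 0 with outlier spots kept (417 of 13244).

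Directions turned for LAMP2 between the untreated lines with the brightest probe (-0.30), for TFE3 between the gefitinib-treated lines with time points 3 h apart (0.086), for TFE3 with EGF under gefitinib in PC9 with normexp (-9.02e-04) and without the time points that stood apart (-0.0022) and in PC9M2 with normexp (-0.013) and 3 h spacing (-0.10), for ATP6V1C1 there with normexp (-0.00507), and in untreated PC9 over time for BECN1 with the brightest probe (0.016), ATP6V1H with normexp (0.43) and the brightest probe (0.39) and TFEB with 75th percentile scaling (-0.00540). The cause was not tested. For single genes, 1387 recomputed values kept direction and side of the threshold, 136 no longer passed, 11 newly passed and 11 turned. Arrays were paired by time point throughout, except where said.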
